A study of Peromyscus maniculatus with 16 samples.

Results

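Cxcl1, which encodes a chemokine that attracts neutrophils through the receptor Cxcr2, was examined beside genes of acute-phase plasma proteins in the livers of deer mice, Peromyscus maniculatus. The list held 10 genes, and 6 of them, Cxcl1, Lcn2, Hp, Hpx, Crp and Apcs, were found by symbol among the 16910 genes of the count table. The other 4, Saa1, Saa3, Saa4 and Orm1, were not analysed here. The genes were chosen by function and with earlier differential expression results of these livers known, so the fold changes below describe the genes and are not independent support for their own direction.

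RNA was sequenced from 16 livers, 1 per animal. Group C held 6 males on regular diet, group NS held 5 males that received a high fat diet (HFD) and had no steatosis, and group S held 2 males and 3 females with steatosis on the same HFD. The HFD supplied 58 kcal% as fat, diets were given for 28 weeks, and all animals were 10 months old at the end. Both stocks are outbred: 13 animals were of the BW stock (P. maniculatus bairdii), and 1 animal in each group was of the Sonoran SM2 stock (C 10876, NS 10865 and S 10880). The 3 females (35982, 35955 and 35990) were all in S, so sex and steatosis cannot be told apart for S as a whole. Total counts lay between 4640733 and 11349971, and the lowest belonged to S animals 36016 and 35982. Hepatocyte markers were abundant in every liver, with a summed level of 56280 to 100300 CPM (counts scaled to the library).

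The acute-phase response is the change in liver protein synthesis that follows infection or injury. Hepatocytes receive interleukin 6, which acts through STAT3, and interleukin 1, which acts through NF-kB, and raise the output of positive acute-phase proteins while that of negative ones such as albumin and transthyretin falls. Socs3 is a feedback inhibitor that STAT3 itself induces. Cxcl1 is an NF-kB target and one of the fast chemokine signals of an injured liver. Levels below are CPM after TMM normalization and are compared between animals within a gene only, because CPM does not take gene length into account.

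Cxcl1 was at most 6.87 CPM in every steatotic liver, and it ranged from low to high in each of the other groups. In C it stood at 48.6 CPM in animal 10876, 47.7 in 35998, 44.1 in 36007 and 41.8 in 36001, but at 4.30 in 35975 and 2.31 in 35972. In NS it stood at 92.9 in 35930 and 80.5 in 35963, at 11.7 in 10865, and at 0.296 in 35987 and 0.271 in 35937. In S it stood at 6.87 in 35990, 1.34 in 10880, 0.939 in 36016, 0.436 in 35955 and 0.371 in 35982. The lowest animals were thus found in both HFD groups, and 4 of 5 S animals lay below the lowest C animal. The low values rested on few counts: 35982 and 35937 had 2 counts each, with an exact 95% Poisson interval of 0.242 to 7.22 counts that covers counting error only. Mean Cxcl1 was 31.5 ± 22.0 CPM in C (SD, n = 6), 37.1 ± 45.7 in NS (SD, n = 5) and 1.99 ± 2.75 in S (SD, n = 5).

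**Figure D1:**
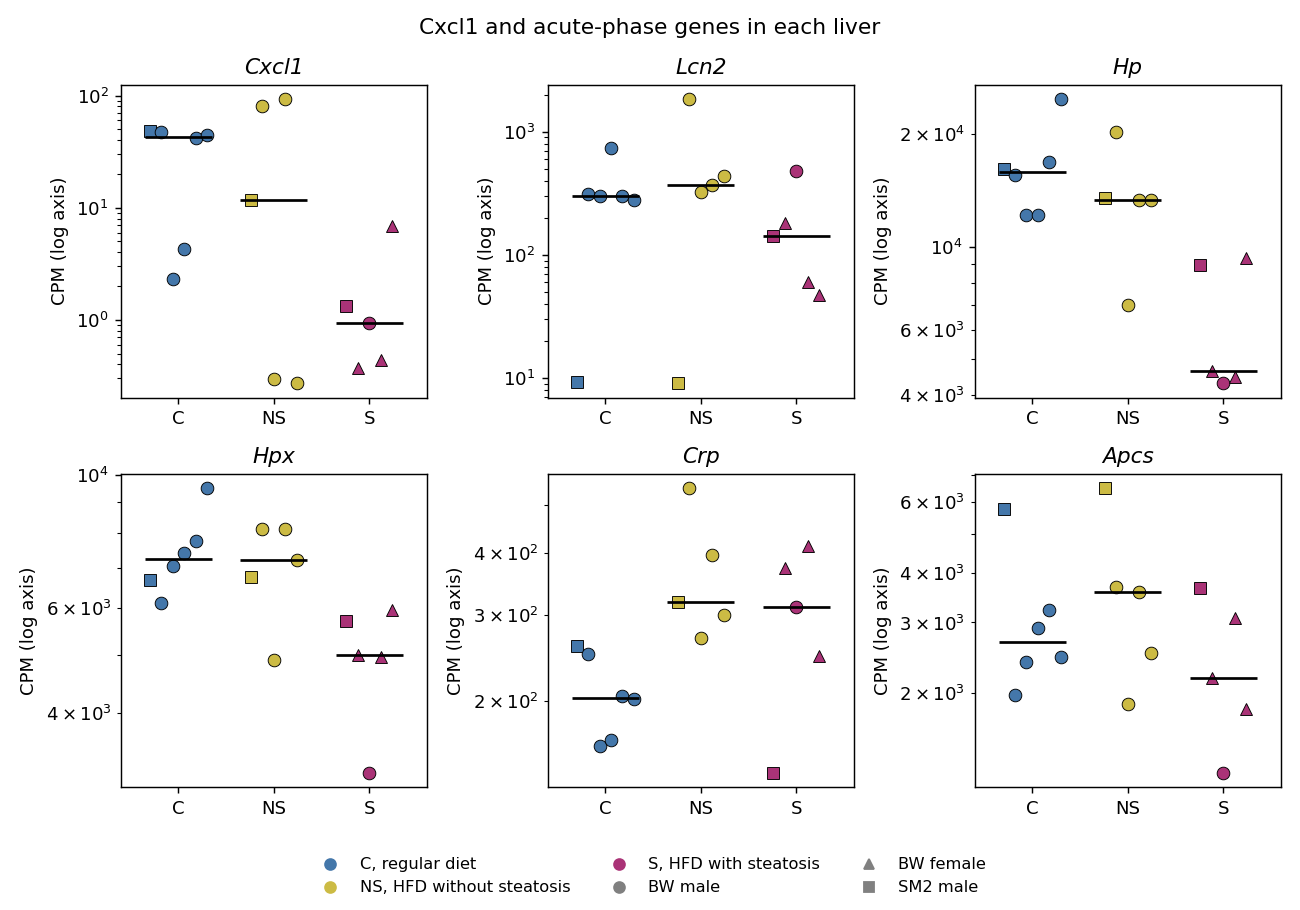
Level of Cxcl1, Lcn2, Hp, Hpx, Crp and Apcs in each of the 16 livers, in CPM on a log axis, by group (C, NS, S), with a bar at the group median and shapes for stock and sex. All 5 S livers lie below all 6 C livers in Hp and Hpx, and Cxcl1 spans 0.271 to 92.9 CPM within NS alone.

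Hp encodes haptoglobin, which captures free haemoglobin, and it was lower in every S liver than in every C liver. The C animals had 12135 (35975), 12170 (35972), 15585 (35998), 16151 (10876), 16857 (36001) and 24858 CPM (36007). The NS animals had 6987 (35987), 13313 (35937), 13359 (35930), 13476 (10865) and 20250 CPM (35963). The S animals had 4305 (36016), 4466 (35955), 4655 (35982), 8939 (10880) and 9332 CPM (35990). The S values fell into a lower part (36016, 35955 and 35982) and an upper part (10880 and 35990). The lower part held the shallow libraries 36016 and 35982 and the largest library of the group, 35955 at 10892425 counts. The part of sex and of depth in this split was not tested. Only 1 NS animal, 35987, reached down into the S range. Mean Hp was 16293 ± 4658 CPM in C (SD, n = 6), 13477 ± 4691 in NS (SD, n = 5) and 6340 ± 2559 in S (SD, n = 5).

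Hpx encodes hemopexin, which binds the haem that haptoglobin does not retain, and it moved with Hp over a smaller range. It lay between 6104 (35998) and 9498 CPM (36007) in C, with 6671, 7049, 7415 and 7771 in between. It was 4907 (35987), 6747 (10865), 7226 (35937), 8113 (35963) and 8118 CPM (35930) in NS. It was 3184 (36016), 4965 (35955), 5004 (35982), 5703 (10880) and 5957 CPM (35990) in S. As with Hp, no S animal reached the lowest C animal, and 35987 was again the lowest of NS. No overlap of S and C was found for 4.19% of all genes tested.

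The pentraxins Crp and Apcs, which bind phosphocholine and amyloid on microbes and debris, followed neither Cxcl1 nor each other closely. Crp, C-reactive protein, was 162 (35972), 167 (35975), 202 (36007), 205 (36001), 249 (35998) and 259 CPM (10876) in C. In NS it was 269 (35987), 299 (35937), 318 (10865), 396 (35930) and 541 CPM (35963). In S it was 143 (10880), 248 (35990), 311 (36016), 373 (35982) and 413 CPM (35955). All 5 NS animals were above all 6 C animals, which held for 0.989% of all genes tested in one direction or the other, whereas S reached from below to above the C range. Apcs, serum amyloid P component, was 1971 to 5759 CPM in C, 1872 to 6493 in NS and 1263 to 3662 in S. The highest Apcs of each group belonged to its SM2 animal, 10876, 10865 and 10880.

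Lcn2 encodes lipocalin 2, which withholds iron from bacteria by binding their siderophores, and it varied by individual rather than by group. It was 9.25 CPM in C animal 10876 and 278.5 to 744.1 in the other 5 C animals. In NS it was 9.08 CPM in 10865, 327 in 35987, 371 in 35930, 438 in 35937 and 1837 in 35963. In S it was 47.5 in 35990, 60.2 in 35955, 142 in 10880, 181 in 35982 and 482 in 36016. The lowest 2 of the 16 livers were SM2 animals, and the third SM2 animal, 10880, lay inside the range of the BW animals. Over the 16 livers the coefficient of variation was 129% for Cxcl1 and 120% for Lcn2, against 47.1% for Hp, 45.9% for Apcs, 37.4% for Crp and 24.0% for Hpx. Its median was 29.1% over all genes of at least 1 CPM on average.

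The comparison of S with C asked which of these genes differed between steatotic livers and those on regular diet. Cxcl1 and Hp were lower in S, and Hpx was lower by less than the fold limit. Calls needed an adjusted p under 0.1 together with a change of 2-fold or more, by the edgeR quasi-likelihood test with Benjamini-Hochberg adjustment over 12639 genes. The log2 fold change of Cxcl1 was -3.88 (SE 1.26, adjusted p = 0.0832), that is 14.7-fold lower. For Hp it was -1.36 (SE 0.29, adjusted p = 0.0241), that is 2.57-fold lower. For Hpx it was -0.58 (SE 0.18, adjusted p = 0.0770). Crp stood at 0.52 (SE 0.24, adjusted p = 0.200), Apcs at -0.38 (SE 0.34, adjusted p = 0.520) and Lcn2 at -0.83 (SE 0.92, adjusted p = 0.611), none of which passed. Thus 2 of 6 genes were called, both lower, where 4.06% of all genes tested were called and 0.965% were called lower. The median log2 fold change of the 6 genes was -0.71, against 0.10 over all genes tested.

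The calls did not stand equally firm against the choice of animals. Without the shallow S animals 35982 and 36016 neither gene was called, with Cxcl1 at -3.44 (adjusted p = 0.257) and Hp at -1.11 (adjusted p = 0.141) by edgeR. Among males only, with 2 S animals left, Hp was called at -1.30 (adjusted p = 0.0875) and Cxcl1 was at -4.74 (adjusted p = 0.210), and among BW animals only Hp was called at -1.53 (adjusted p = 0.0300) and Cxcl1 was at -3.58 (adjusted p = 0.141). The call of Cxcl1 was lost when any of 8 single animals was left out (C 10876, 35975, 36001 or 36007, or S 10880, 35982, 36016 or 35955), whereas Hp was called in all 16 such fits.

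**Figure D2:**
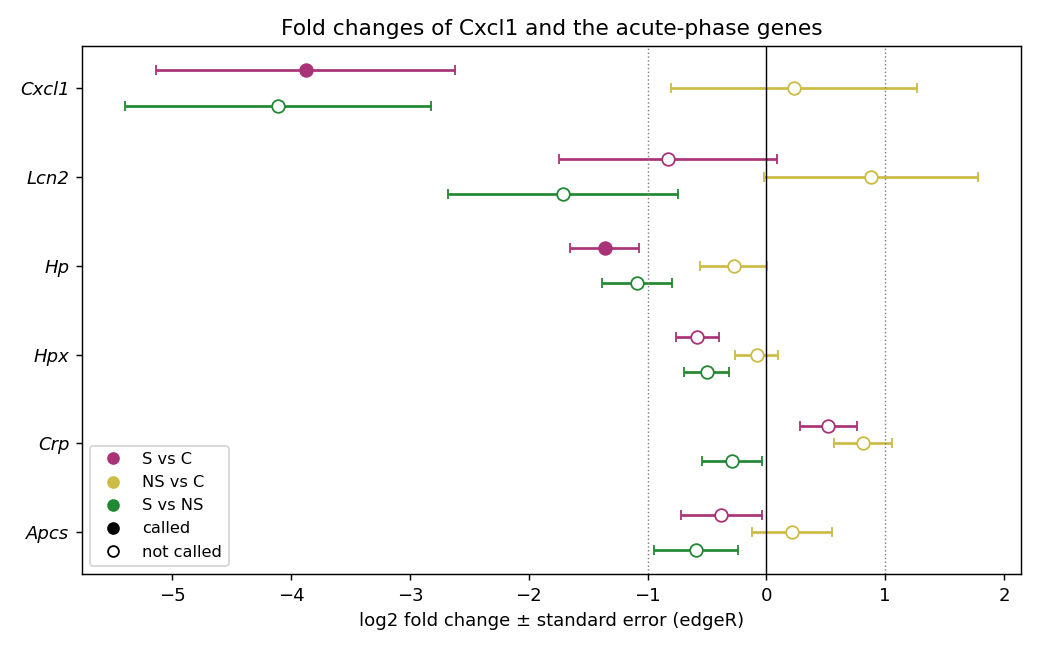
Log2 fold change of each gene in the 3 comparisons of S, NS and C, with bars of 1 standard error from the edgeR fit; filled points were called, and dotted lines mark a 2-fold change. The filled points are Cxcl1 (-3.88) and Hp (-1.36) in S vs C.

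NS against C asked what HFD without steatosis was accompanied by, and none of the 6 genes was called. Background calls were rare in this comparison, at 0.0712% of all genes tested. Crp came nearest, at a log2 fold change of 0.81 (SE 0.24, edgeR adjusted p = 0.395), and was the 1 gene of the 6 with an unadjusted p under 0.05, as 8.29% of all genes had. Cxcl1 stood at 0.23 (SE 1.03), Lcn2 at 0.88 (SE 0.90), Hp at -0.27 (SE 0.28), Hpx at -0.08 (SE 0.18) and Apcs at 0.22 (SE 0.34). The signs for Cxcl1, Lcn2, Hpx and Apcs turned when single animals were left out, and that of Lcn2 rested on NS animal 35963, without which it was -0.18. DESeq2 also called none of the 6 genes here.

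S against NS compared both outcomes of the same diet, and by edgeR again none of the 6 genes was called, where 0.00791% of all genes tested, a single gene, was. All 6 estimates were below 0. Cxcl1 was at -4.11 (SE 1.29, adjusted p = 0.307), Hp at -1.09 (SE 0.30, adjusted p = 0.289) and Hpx at -0.50 (SE 0.19, adjusted p = 0.389), the 3 with an unadjusted p under 0.05, as 10.9% of all genes had. Lcn2 was at -1.71 (SE 0.97), Apcs at -0.60 (SE 0.35) and Crp at -0.29 (SE 0.25). DESeq2 called Cxcl1 at -4.20 (adjusted p = 0.0799) and Hp at -1.08 (adjusted p = 0.0488). Whether the effects in S and NS against C differ is what this comparison tests, and it shares its S and NS animals with the comparisons above, which also share the C animals.

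Cxcl1 followed Hp, and less closely Hpx, from animal to animal, and across all 16 livers did not follow Lcn2 or Crp. Over the 16 livers, on log2 CPM, Pearson's r of Cxcl1 with Hp was 0.79 (jackknife SE 0.10, Spearman's rho 0.76) and with Hpx 0.65 (jackknife SE 0.13, rho 0.64). With Apcs it was 0.43 (jackknife SE 0.16, rho 0.46), with Crp 0.08 (jackknife SE 0.29, rho 0.04) and with Lcn2 -0.02 (jackknife SE 0.28, rho -0.01). These are descriptions without a p-value, since both genes of a pair come from 1 library and the relation was proposed with results of these data known. As a scale, r of Cxcl1 with all 10325 genes of at least 1 CPM on average had a median of -0.03 and lay between -0.58 and 0.58 for the middle 90%. In that order Hp ranked 7 and Hpx 231, while Apcs ranked 1388, Crp 4178 and Lcn2 5072.

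**Figure D3:**
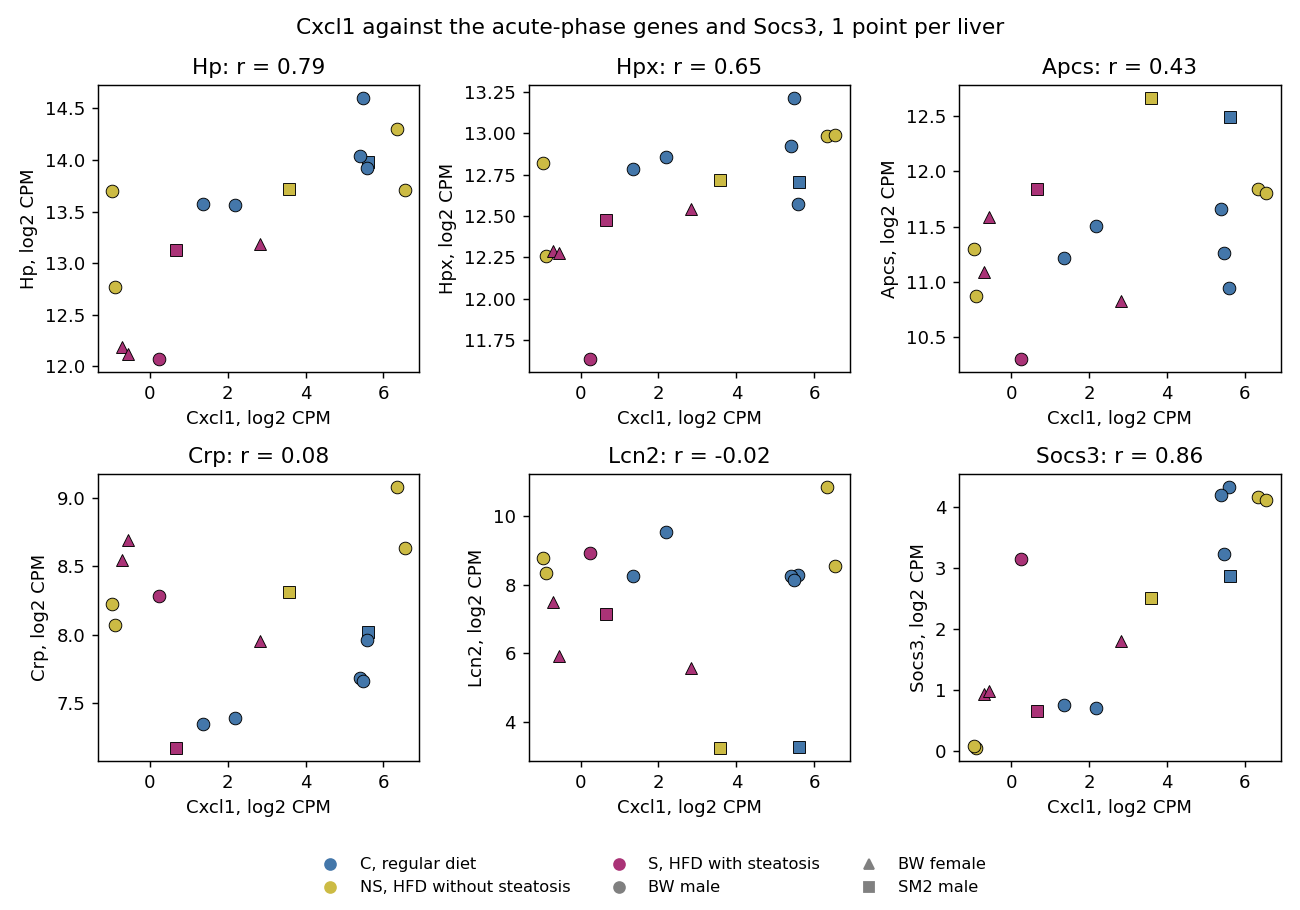
Log2 CPM of Hp, Hpx, Apcs, Crp, Lcn2 and Socs3 against log2 CPM of Cxcl1, 1 point per liver, coloured by group with shapes for stock and sex; each panel gives Pearson's r. The points rise together for Hp (r = 0.79), Hpx (0.65) and Socs3 (0.86) and show no slope for Crp (0.08) and Lcn2 (-0.02).

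The ranks of the animals show where the relation held and where it broke. The 6 livers with the highest Cxcl1 (NS 35930 and 35963, C 10876, 35998, 36007 and 36001) included 5 of the 6 livers with the highest Hp, an agreement that 1.89% of the 10325 genes reached. For Hpx and Apcs 4 of 6 were shared, as for 15.7% of genes, and for Crp and Lcn2 2 of 6, the median of all genes. The clearest break was NS animal 35937, which had the lowest Cxcl1 of all livers (0.271 CPM) and ranked 8 of 16 in Hp (13313 CPM) and 6 of 16 in Hpx. Without it, r with Hp was 0.88 and r with Hpx 0.74, the highest values on leaving out any single animal. Among the 6 highest Cxcl1 livers alone r with Hp was -0.34, and among the other 10 it was 0.56. For Crp it was 0.92 among those 6 and -0.35 among the other 10. The liver with the highest Cxcl1, 35930, ranked 7 in Hp (13359 CPM), below 10865 of the other 10 (13476 CPM). These subsets were taken on Cxcl1 itself after its values were seen.

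The relation of Cxcl1 with Hp was also seen within groups. With each group's mean subtracted, r of Cxcl1 was 0.68 with Hp, 0.44 with Hpx, 0.34 with Apcs, 0.40 with Crp and -0.12 with Lcn2. Within the 10 HFD animals it was 0.72 with Hp, within the 13 BW animals 0.77 and within the 13 males 0.73. Without 35930 and 35963, the livers farthest from the median of Cxcl1, it was 0.78 with Hp, and without the shallow S animals 35982 and 36016 it was 0.76. The r of Lcn2 with Cxcl1 was 0.31 within BW animals and -0.11 within males. That of Crp was 0.39 within HFD animals, 6.8e-05 within BW animals and 0.32 within males. Depth moved with some of these genes: r of the total count was 0.39 with Cxcl1, 0.41 with Hp, 0.50 with Hpx and 0.45 with Apcs. It was -0.09 with Crp and -0.26 with Lcn2. The part of depth in the relation was not tested beyond leaving out the shallow libraries.

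Among the plasma proteins, Hp and Hpx were the most alike of the 15 pairs of the 6 genes, with r = 0.89 (rho 0.82), or 0.77 with group means subtracted. Apcs was next to Hpx at 0.51 and to Hp at 0.45. Crp had r between -0.20 and 0.08 with each of the other 5 genes. Lcn2 had r = -0.51 with Apcs, but 0.25 within BW animals, so its sign turned when the SM2 animals, 2 of them high in Apcs and low in Lcn2, were left out.

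By the rule for likeness, the genes with the highest r with Cxcl1, the 6 genes set aside, were Socs3 (0.86), Lrrfip2 (0.82), Taf1d (0.81), Dexi (0.80) and Wdr4 (0.79), and those with the lowest were Tfcp2l1 (-0.88), Nfatc1 (-0.86) and Uaca (-0.85). Socs3, the STAT3-induced inhibitor, was 19.7 (35998), 18.0 (36001), 9.10 (36007) and 7.09 CPM (10876) in the C animals with high Cxcl1. It was 1.44 (35972) and 1.39 CPM (35975) in the C animals with low Cxcl1. In NS it was 17.6 (35963), 17.1 (35930), 5.42 (10865), 0.814 (35937) and 0.790 CPM (35987), in the same order as Cxcl1 except that the first and second, and likewise the last and last but one, changed places. In S it was 8.63 in 36016 and 1.34 to 3.24 in the other 4 animals. Its r with Cxcl1 was 0.88 with group means subtracted and 0.95 without 35982 and 36016, but 0.35 among the 6 livers with the highest Cxcl1 and 0.50 among the other 10. Socs3 was not called, at a log2 fold change of -1.54 in S vs C (SE 0.85, edgeR adjusted p = 0.273) and -1.36 in S vs NS (SE 0.87, edgeR adjusted p = 0.573).

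**Figure D4:**
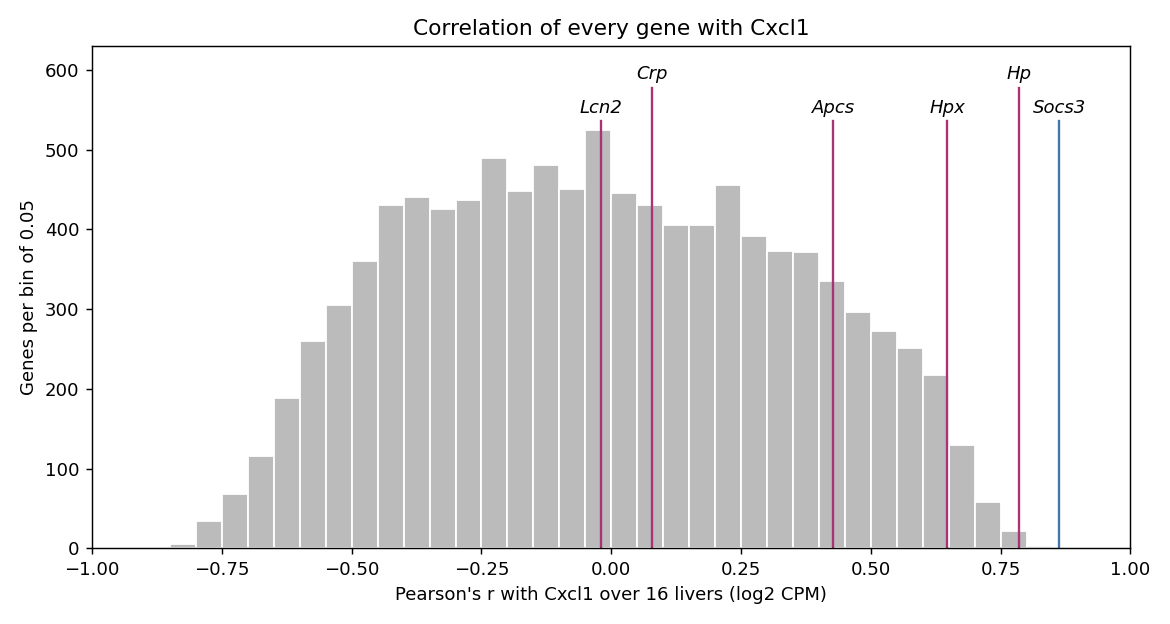
Number of genes in each interval of 0.05 of Pearson's r with Cxcl1 over 16 livers, for 10325 genes, with lines at the 5 acute-phase genes and Socs3. Socs3 (0.86) and Hp (0.79) stand in the upper tail, whereas Lcn2 (-0.02) and Crp (0.08) stand near the median of -0.03.

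For Lcn2 the most alike genes were Lgals3bp (r = 0.91, rho 0.87), Exd1 (0.88), Adi1 (0.83), Echdc1 (0.83) and BC016579 (0.82). Lgals3bp, a secreted galectin-binding glycoprotein, was 60.9 and 104 CPM in SM2 animals 10876 and 10865 and 172 to 485 CPM in the other 14, so the SM2 animals that were low in Lcn2 were also the lowest in Lgals3bp.

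Of the cytokines upstream, Il6 and Tnf were scarce in these livers and Il1b was measurable. Il6 had 0 to 2 counts in every animal and Tnf 0 to 6, so no difference was detectable at this depth. Il1b was 1.76 to 17.8 CPM in 15 animals and 61.7 CPM in S animal 35990, which also had the highest Cxcl1 of S, and its r with Cxcl1 was 0.25. Of 36 signalling genes tested, 1 was called in S vs C, a share below the 4.06% of all genes: Lifr, the receptor of leukaemia inhibitory factor, was higher (log2 fold change 1.25, SE 0.36, edgeR adjusted p = 0.0606). S animals 35982, 36016 and 35955 had the highest levels (27.6 to 52.3 CPM), whereas S 10880 and 35990 stood at 6.82 and 15.4 CPM and C at 9.20 to 15.8. The call was lost without any of these 3 animals or C 35975, 36001 or 36007.

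Other positive acute-phase genes leaned the same way as Hp. Of 37 listed, 16 were in the table and tested, and 14 of the 16 had a log2 fold change below 0 in S vs C, with a median of -0.56 against 0.10 for all genes. By edgeR 1 of the 16 was called in S vs C, where 4.06% of all genes tested were called and 0.965% were called lower. At an unadjusted p under 0.05 by edgeR there were 8 of the 16, where 23.8% of all genes were. The called gene was Lbp, which presents lipopolysaccharide to CD14. It was lower (-1.42, SE 0.41, edgeR adjusted p = 0.0610), at 40.5 to 150 CPM in S and 121 to 452 CPM in C. The call of Lbp was lost without C 10876, 36001 or 36007 or S 35982, 36016 or 35955, and without both 35982 and 36016 it stood at -1.03 (adjusted p = 0.245). The median was -0.06 for NS against C and -0.46 for S against NS, with 0 genes called by edgeR but 1 and 6 at an unadjusted p under 0.05, where 8.29% and 10.9% of all genes were. DESeq2 called Itih3 and Lbp in S against both C and NS, and Angptl4 against C. The 14 genes of at least 1 CPM had a median r of 0.48 with Cxcl1 and 0.60 with Hp, and 12 of them were above 0 with each.

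Negative acute-phase genes were mixed. All 11 measured of 13 listed were tested, and their median log2 fold change was -0.29 for S against C, -0.19 for NS against C and -0.36 for S against NS, with 0 called by edgeR. In S vs C 7 of 11 were below 0, and the change farthest from 0 was that of Apoa1, the main protein of high density lipoprotein, at 0.96 (edgeR adjusted p = 0.0575), short of the fold limit. Rbp4 came next and in the other direction, at -0.90, also short of the fold limit. It had the lowest adjusted p of the list (edgeR adjusted p = 0.0157). At an unadjusted p under 0.05 there were 6, 2 and 3 genes in the 3 comparisons, where 23.8%, 8.29% and 10.9% of all genes were, and DESeq2 called 1, Apoa1, in NS against C. Their median r was 0.43 with Cxcl1 and 0.62 with Hp, and 8 of 11 were above 0 with each. With Hp the range ran from 0.89 for Ahsg (fetuin A) to -0.40 for Apoa1. The fibrinogen chains Fgb, Fgg and Fga of the positive list stood at 0.86, 0.75 and 0.64 with Hp. Hepatocyte markers, 2 of which (Apoa1 and Ttr) are also on the negative acute-phase list, leaned with them: 9 of 10 were below 0 in S vs C (median -0.52). Their median r was 0.57 with Hp and 0.41 with Cxcl1, and their summed level was 73070 to 98760 CPM in C, 56930 to 100300 in NS and 56280 to 79610 in S. In whole liver, fewer cells of a type and less RNA per cell cannot be told apart, and the part of hepatocyte content in the values of Hp and Hpx was not tested.

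**Figure D5:**
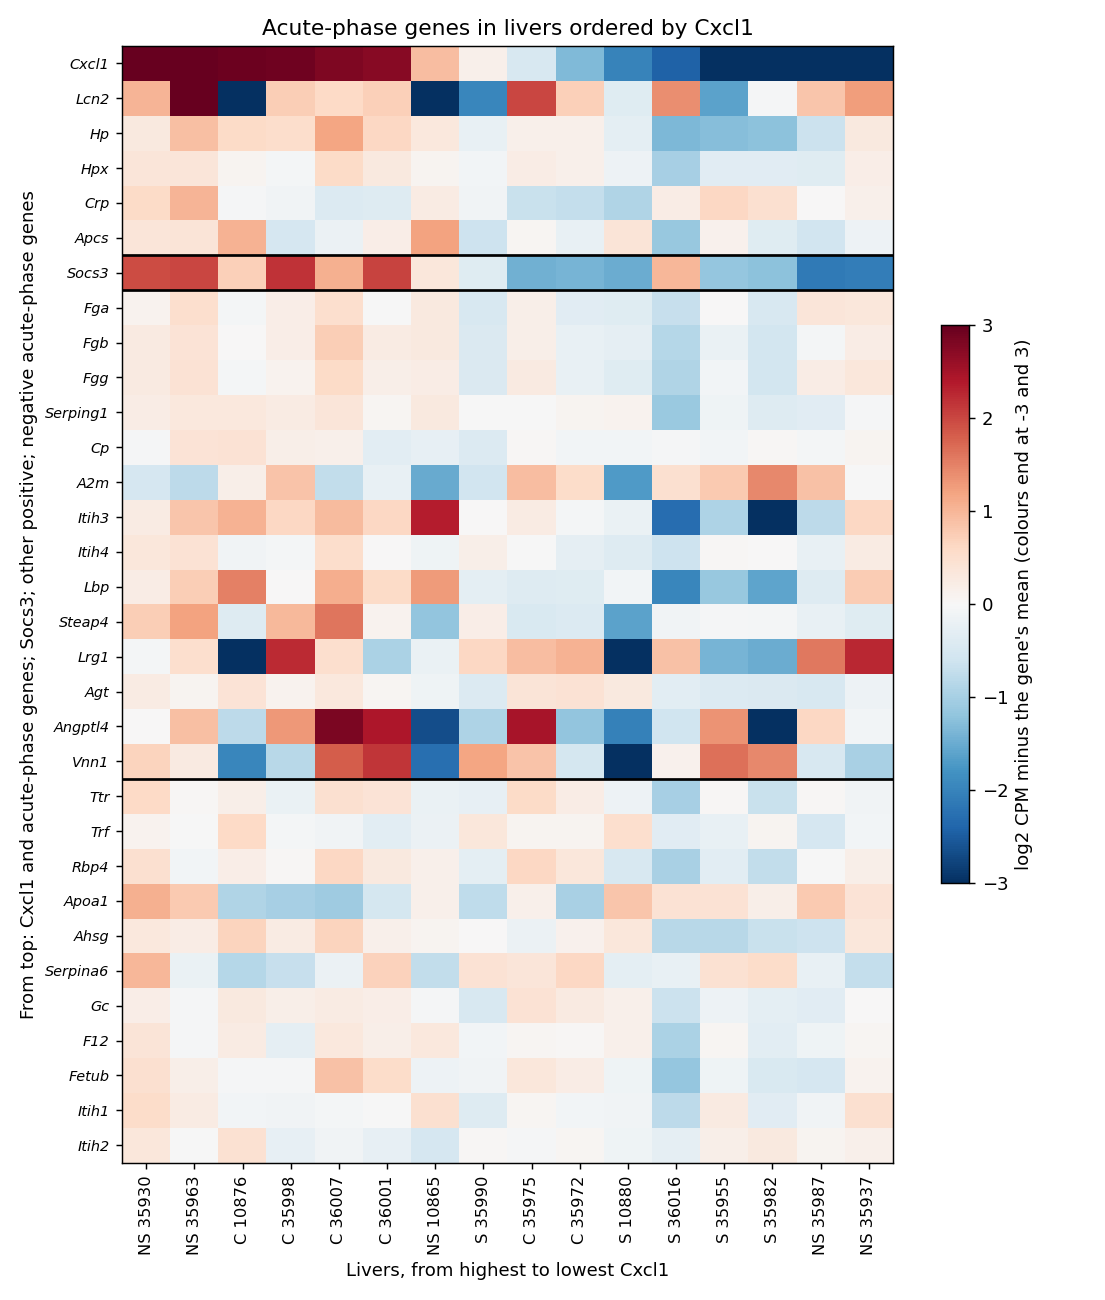
Log2 CPM minus each gene's mean over the 16 livers, with livers ordered from the highest Cxcl1 on the left to the lowest on the right, for the 6 genes, Socs3, other positive acute-phase genes and negative acute-phase genes (colours end at -3 and 3). Socs3 and Hp are mostly above their mean on the left and below it on the right, whereas Lcn2 and Crp are not ordered.

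The target cells of Cxcl1 were represented by few transcripts. The 16 neutrophil markers in the count table summed to 31.3 to 86.4 CPM in C, 15.9 to 62.4 in NS and 15.2 to 36.7 in S. Cxcr2 had 0 to 7 counts in every liver. Of the 11 markers tested 2 were called in S vs C, where 4.06% of all genes tested were called and 0.965% were called lower. These were S100a8 and S100a9, the calprotectin subunits, which were lower, at -1.98 (SE 0.52, edgeR adjusted p = 0.0452) and -1.77 (SE 0.48, edgeR adjusted p = 0.0497). S100a8 was 8.76 to 30.8 CPM in C, 3.28 to 21.0 in NS and 1.83 to 6.10 in S, and its r with Cxcl1 was 0.64, that of S100a9 0.65. Both calls were kept in all 16 fits that left out 1 animal, and without both 35982 and 36016 neither was called, with log2 fold changes of -1.95 (edgeR adjusted p = 0.159) and -1.86 (edgeR adjusted p = 0.152). Csf3r, the granulocyte colony-stimulating factor receptor, stood at 0.33 (SE 0.58, edgeR adjusted p = 0.768), and the median of the neutrophil list was -0.04. The r of S100a8 and S100a9 with Cxcl1 was the highest of this list. Over the 11 markers tested r ran from 0.65 for S100a9 to -0.37 for Hdc, with 0.24 for Csf3r. Their median r was 0.24, and 8 of the 11 were above 0.

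Chemokines and their receptors showed few changes. Of 30 such genes tested, 1 was called in S vs C, a share near the 4.06% of all genes: Ccl25 was lower (-3.10, SE 0.92, edgeR adjusted p = 0.0642), at 0 to 0.381 CPM in S and 0.333 to 3.75 in C. The median of the list was 0.02, and its median r with Cxcl1 was 0.13 over the 14 genes of at least 1 CPM, 11 of them above 0 (78.6%, against 47.1% of all genes). Markers of other cells moved as follows in S vs C, where again 4.06% of all genes tested were called. Kupffer cell and macrophage markers had a median of 0.41, and their summed level was 829 to 1263 CPM in C and 757 to 1870 in S. Of 14 tested 1 was called, Slc40a1 (ferroportin), which was higher (1.31, SE 0.35, edgeR adjusted p = 0.0486). Slc40a1 was 354 (35982), 508 (35955) and 416 CPM (35990) in the S females. In the S males it was 83.0 (10880) and 160 CPM (36016), against 88.4 to 159 in C, all males. Sex and steatosis cannot be told apart in this call. Lymphocyte markers had a median of 0.56, with 1 of 9 called: Cd79b was higher (1.83, SE 0.51, edgeR adjusted p = 0.0554) at levels of at most 1.83 CPM. Endothelial, stellate and bile duct markers had a median of 0.24, with 2 of 16 called: Dcn was lower (-1.05, SE 0.25, edgeR adjusted p = 0.0354) and Col1a1 was higher. The call of Col1a1 came from S animal 36016 alone, at 2058 CPM against 3.26 to 17.0 in the other 15 livers, and without it the log2 fold change was -0.28 (edgeR adjusted p = 0.736). The call of Ccl25 was lost without C 35975 or 36001 or S 35982 or 36016, that of Slc40a1 without C 35975, that of Cd79b without C 35975 or 36007 or S 35955, and that of Dcn without C 35972 or 35975 or S 10880 or 35982. By edgeR none of these lists had a gene called in the comparisons with NS, with 0 to 4 genes a list at an unadjusted p under 0.05 against C and 1 to 6 in S against NS, whereas DESeq2 also called Lifr and Slc40a1 in S vs NS. The part of these cell types in the level of Cxcl1 was not tested.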

How the data were processed

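The deposited table holds raw counts per gene for each of the 16 livers, with no normalization. Per the study's methods, the authors used STAR 2.7.2 for alignment to the HU_Pman_2.1 assembly and counted uniquely mapped reads with featureCounts of the Subread package on the Ensembl annotation. The strand setting of the counting and the conversion to symbols were not given in the sources used here, so reads of overlapping genes and close paralogs are uncertain. Group, stock, sex and diet came from the sample labels. No pair of libraries of a group agreed within sampling noise (35 pairs, lowest chi-square per degree of freedom 19.7).

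Genes that reached 0.5 CPM in 1 or more animals were tested on the counts with edgeR 4.0.16 and limma 3.58.1 (R 4.3.3), using TMM factors, the quasi-likelihood test and all 16 animals in 1 fit without covariates. Correlations used log2 CPM with a prior count of 2. The script was tested on simulated data. Alternatives were DESeq2 1.42.0, other scalings, filters and limits, stock as a covariate, subsets of animals and leaving out each animal. Figures were drawn with matplotlib 3.10.9 in Python 3.11.15.

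The genes and lists were chosen with earlier results of these data known. All genes in the table were named, with the called genes of each list (up to 3), Il6, Il1b, Tnf, Cxcr2, Csf3r, S100a8, S100a9, Socs3, the 5 genes most like Cxcl1 and Lcn2 and the 3 least like Cxcl1. One result of the marker lists is not reported here. Other genes of the acute-phase lists were named after their values were seen. Total counts of 4640733 to 11349971 make counts of a few reads, as for Cxcl1 in the lowest livers, imprecise, and intervals cover counting error only.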

Additional observations from a re-analysis of the deposited data

Results flagged for a closer look

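Each of the 6 genes was examined in each of the 3 groups for a liver set apart from the rest of its group, measured as the gap to the nearest liver divided by the range of the group, with Dixon's limits of 0.71 for 5 livers and 0.625 for 6. In 4 of 18 cases the limit was passed on the CPM scale. Chance gives about 1 in 20 for normally distributed values, and the distribution of CPM was not tested. The gaps were not taken on log2 CPM, so the 4 cases are a description and not an excess over chance. Cxcl1 in S animal 35990 was 6.87 CPM, against 0.371 to 1.34 in the other S animals, a gap of 0.851 of the range. Lcn2 in NS animal 35963 was 1837 CPM, against 9.08 to 438 in the others (0.765). Hp in C animal 36007 was 24858 CPM, against 12135 to 16857 in the others (0.629, just past the limit). Apcs in C animal 10876, the SM2 animal of its group, was 5759 CPM, against 1971 to 3229 in the others (0.668).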

How the results depend on the processing

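The number of the 6 genes called in S vs C, 2 as reported, was 1 among BW animals only, 1 among males only, 1 at an adjusted p under 0.05 with no fold limit (Hp each time) and 0 without S animals 35982 and 36016, a setting chosen after seeing the data; leaving out single animals gave 1 to 2. In S vs NS it was 0, but 2 with DESeq2, and leaving out single animals gave 0 to 0. In NS vs C it was 0 under every alternative run, and 0 to 0 with single animals left out. Over all alternatives in S vs C, adjusted p lay between 0.0169 and 0.257 for Cxcl1 and between 0.000327 and 0.141 for Hp. With stock as a covariate, Lcn2 in S vs C was 0.0019 on the log2 scale, a change of sign. With single animals left out, the NS vs C log2 fold changes of Cxcl1 ran from -0.45 to 0.55, of Lcn2 from -0.18 to 1.31, of Hpx from -0.14 to 0.0254 and of Apcs from -0.10 to 0.48. Of 468 recomputed log2 fold changes, 445 kept direction and side of the threshold, 13 lost and 2 gained the call and 8 changed sign. The median r of Cxcl1 with the 5 acute-phase genes, 0.43, was 0.23 with counts divided by Tbp and 0.26 among the 6 livers with the highest Cxcl1, and 0.35 to 0.52 with single animals left out. With counts divided by Tbp, r of Cxcl1 was 0.74 with Hp and 0.44 with Hpx. For Hpx it was 0.19 among the 6 livers with the highest Cxcl1 and 0.41 among the other 10. The causes of these changes were not tested. No paired analysis was possible because the labels give no replicate numbers shared between groups.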
